A study of Mus musculus with 6 samples.

Results

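Intraflagellar transport (IFT) and BBSome genes were examined in RNA from whole testes of mice that lacked Sel1L in male germ cells. The 38 members were the protein-coding genes of the GENCODE M21 annotation whose symbol is Ift or Bbs followed by a number, which gave 22 genes, and 16 further subunits, assembly factors and motors taken by name, all of which were found. They are 38 of the 55536 genes in the count files and of the 22028 that the annotation calls protein-coding, and all 38 entered the test of 21465 genes. SEL1L is the adaptor subunit of the HRD1 ubiquitin ligase complex, which removes misfolded proteins from the endoplasmic reticulum.

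The series compared 3 KOStra8 testes with 3 HETStra8 testes at 7 weeks of age, with 1 library per mouse. KOStra8 mice were Sel1L flox/Δ;Stra8-Cre, so Sel1L was deleted through a Cre transgene under the Stra8 promoter, which is active in male germ cells. The study methods pool Sel1L flox/+;Stra8-Cre and Sel1L flox/Δ animals under the name HETStra8, whereas the series record describes the HETStra8 mice as Sel1L flox/Δ without mention of Cre, and no genotype is given per mouse. Every KOStra8 mouse and, by that record, every HETStra8 mouse therefore carried a Δ allele, and the paper describes SEL1L as retained in Sertoli cells and in spermatogonia of KOStra8 testes. The whole testis was sequenced as poly(A)+ RNA, and p-values reflect the spread between these mice.

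IFT moves cargo along the axoneme, the microtubule core of cilia and of the sperm flagellum, in long trains built from an IFT-A and an IFT-B complex. Kinesin-II carries trains from the base to the tip, cytoplasmic dynein-2 carries them back, and the BBSome, an octameric coat, links membrane proteins to the trains for export. In the testis the axoneme is built in round and elongating spermatids, and in mice the loss of several IFT proteins in male germ cells leaves spermatids without proper flagella.

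Many genes of cilia carry in their promoters an X-box, the palindromic site of RFX transcription factors, in which the core GTTGCC is followed by AT and by the core on the other strand. RefSeq promoters, taken as the 250 bases before and 50 bases after a transcription start on GRCm38.p6, were found for 33 members as 34 promoters. The core, read on both strands, stood in 14 of the 34 promoters (41.2%) and in 2688 of 21263 promoters of all protein-coding genes (12.6%). At least 12 of the 14 letters of the palindrome, which contains the core on each strand and so overlaps with the first search, were matched in 3 promoters of members (8.82%), those of Bbs1, Bbs7 and Ttc26, and in 247 of all (1.16%). These are letter matches and not shown to be bound. The 30-base windows below, in the direction of the gene, hold the best match of each promoter with at least 11 matching letters and the whole match before the start; the capitals mark the 14 bases matched against the palindrome.
Bbs7, chr3:36613489-36613518, minus strand, 12 letters: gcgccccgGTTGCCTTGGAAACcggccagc
Ttc26, chr6:38381483-38381512, plus strand, 12 letters: ccggcggcGTTGCCGTGGAAACggagctcg
Ift57, chr16:49699199-49699228, plus strand, 11 letters: cgggtctgGTTGCCGTGGTGACcggctgcc
Traf3ip1, chr1:91494581-91494610, plus strand, 11 letters: gcgcgtccGTTGCCAAGGCCGCgcggccct
Ift140, chr17:25015961-25015990, plus strand, 11 letters: tggggcgtGTTGTGACGGCAACctcgcgcc
Ift22, chr5:136908109-136908138, plus strand, 11 letters: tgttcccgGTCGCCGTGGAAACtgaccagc
Bbs12, chr3:37312431-37312460, plus strand, 11 letters: gacaggcgGTTGCTATAGCAGCgctcagcg
The first base of the match lay 33 bases before the start in Ttc26 and in Ift22, 79 in Traf3ip1, 87 in Ift57, 115 in Bbs12, 117 in Ift140 and 121 in Bbs7. Ttc26, Ift57, Bbs7 and Traf3ip1 hold the complete core at the left end of the match, and Ift140 holds it at the right end on the other strand. Ift22 and Bbs12 do not hold the complete core anywhere in the promoter.

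Library totals lay between 28875108 and 36526695 counts, with a median of 33271942 in HETStra8 and 34663706 in KOStra8, and log2 levels correlated between any pair of mice at r from 0.976 to 0.984 across genes. Levels are given as CPM, the counts of a gene scaled to a common library size after TMM normalization. Sel1l itself, the deleted gene, stood at 49.3, 47.6 and 42.4 CPM in HETStra8 mice 1, 2 and 3 and at 24.2, 22.0 and 20.3 CPM in KOStra8 mice 1, 2 and 3, without overlap. Its log2 fold change was -1.07 (SE 0.104, edgeR adjusted p = 0.00061), counted over all exons of the gene. Every mouse had the germ cell markers of a testis, with a summed level of 10 elongating spermatid markers between 15112 and 16954 CPM. Of 5 markers of multiciliated cells, which also use IFT, 3 had counts in all mice and Mcidas had 5 or fewer counts in each. Of 6 epididymis markers, Lcn8 and Spag11b were at 0 in all 6 mice, and the summed level was 13.1 CPM in HETStra8 mouse 1 and between 2.98 and 6.27 CPM in the other 5. HETStra8 mouse 3 lay nearer to the KOStra8 mean than to the mean of the other HETStra8 mice for 26 of the 38 members (68.4%) and 59.9% of all genes. Mouse 1 did so for 14 members (36.8%) and 39.9% of all genes, and mouse 2 for 18 members (47.4%) and 42.6% of all genes.

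All 38 members were transcribed in every testis, and none was called different between the genotypes. The cutoffs of the study ask for a fold of 2 together with an adjusted p of 0.01. At these, edgeR's quasi-likelihood test with Benjamini-Hochberg adjustment called 0 members. Among all genes tested it called 1 higher (0.00466%) and 1 lower (0.00466%). The paper reports more genes past these cutoffs in each direction. With so few genes called here, a count of 0 members says little by itself. At an adjusted p of 0.01 without a fold cutoff edgeR also called 0 members, against 3 genes higher (0.0140%) and 1 lower (0.00466%). At that cutoff DESeq2 called 1 member, Dync2h1, beside 121 genes higher and 11 lower of the 12232 that it gave an adjusted p, and limma-voom called 0 members, beside 3 genes higher and 1 lower. The smallest adjusted p of a member was 0.0887, and at an adjusted p of 0.05 there was none either. Log2 fold changes of the members, KOStra8 against HETStra8, lay between -0.28 and 0.48 with a median of 0.03, beside a median of -0.0094 over all genes. Of the members 21 had a log2 fold change above 0, where 48.5% of all genes did, and 17 below.

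These differences were small with narrow intervals. The 95% confidence intervals of all 38 members lay inside a fold of 2 in either direction, and those of 35 inside a fold of 1.5. The lowest bound was a log2 fold change of -0.51, for Ift27, and the highest was 0.94, for Ift74. Because whole testes were sequenced, fewer cells of a type and less RNA per cell cannot be told apart in any of these values.

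**Figure D1:**
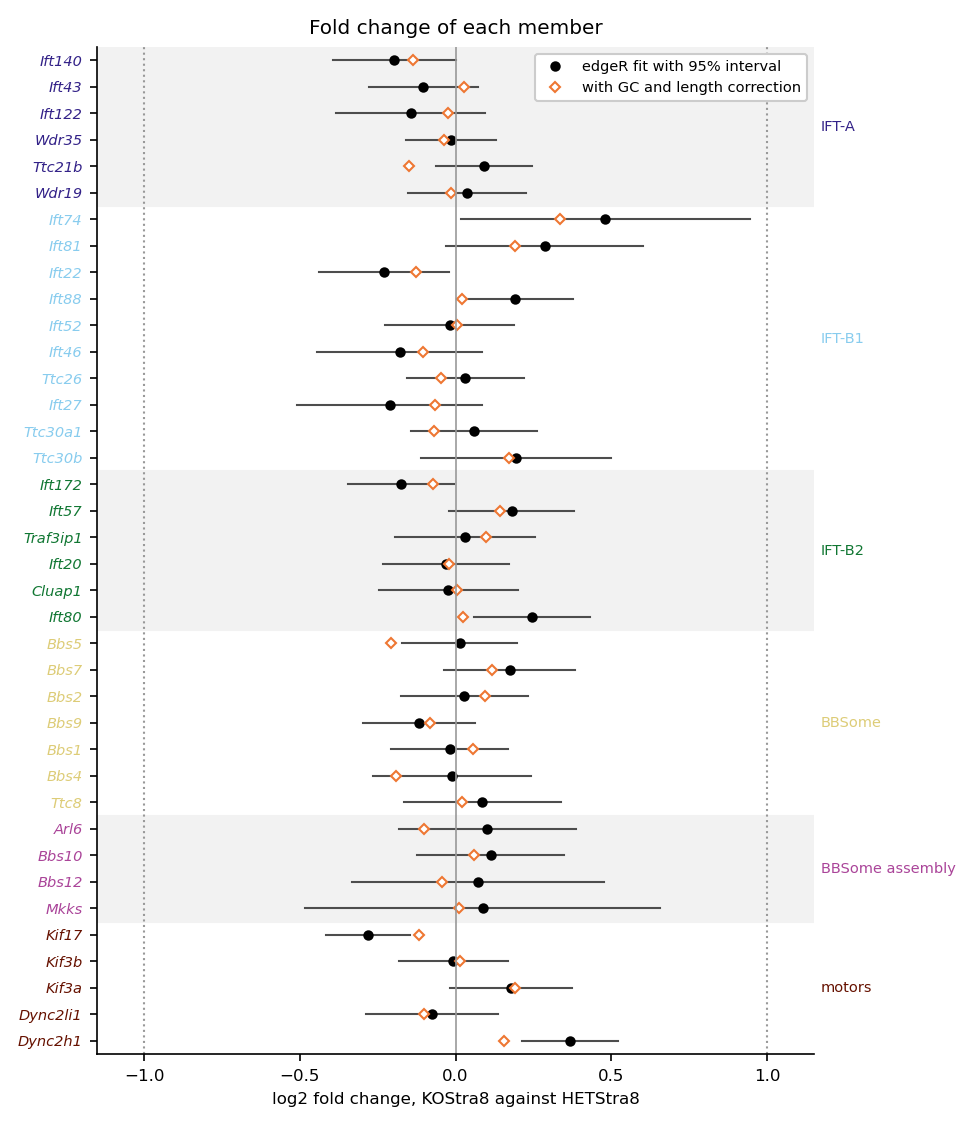
Log2 fold change (x axis) of each member (rows, grouped by role and ordered by level), with black dots and lines for the edgeR estimate and its 95% confidence interval, open diamonds for the estimate after correction for GC content and length, and dotted lines at a fold of 2. All 38 intervals stay between the dotted lines, and Ift74 has the estimate farthest from 0, at 0.48.

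At an unadjusted p of 0.05 there were 4 members higher in KOStra8 (Dync2h1, Ift80, Ift74 and Ift88), beside 7.13% of all genes, and 3 members lower (Kif17, Ift22 and Ift172), beside 5.12%. Without HETStra8 mouse 3 these counts were 8 and 6, beside 11.0% and 8.81% of all genes. Without KOStra8 mouse 2 they were 2 and 1, beside 6.48% and 4.24%, and without KOStra8 mouse 3 also 2 and 1, beside 4.29% and 2.27%. Without HETStra8 mouse 1 they were 3 and 1, beside 5.21% and 3.42%, and without HETStra8 mouse 2 again 3 and 1, beside 5.29% and 3.52%. The 3 mice of each genotype did not overlap for 5 members that were higher in KOStra8, Ift57 in addition to the 4 above, and for 1 that was lower, Kif17, beside 9.33% and 8.43% of all genes. The 5 members with both features, an unadjusted p below 0.05 and no overlap, are described first within their roles.

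The motors held the members with the smallest p in each direction. Dync2h1 (chr9:6928503-7184446, minus strand, GRCm38), the heavy chain of the dynein that returns trains to the base, stood at 199, 189 and 188 CPM in HETStra8 mice 1, 2 and 3 and at 259, 230 and 254 CPM in KOStra8 mice 1, 2 and 3. Every KOStra8 mouse lay above every HETStra8 mouse, by more than the spread within either genotype. The means were 192 ± 5.67 CPM in HETStra8 and 248 ± 15.2 CPM in KOStra8 (SD, n = 3). Its log2 fold change was 0.37 (SE 0.0723), with a 95% interval from 0.21 to 0.52. The edgeR adjusted p of Dync2h1 was 0.0887, rank 39 among all genes by p, and so missed the cutoff. It passed at an adjusted p of 0.0087 without HETStra8 mouse 3, where 1.91% of all genes were called higher and 0.0996% lower, of 0.00112 without a filter on low counts, where 337 of 35894 genes were called higher and 48 lower, and of 0.00205 in the Wald test of DESeq2, always far below a fold of 2. With the correction for GC content and length described further on, its log2 fold change was 0.16 (adjusted p = 0.607), and 0.11 (adjusted p = 0.528) when HETStra8 mouse 3 was left out as well.

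Kif17 (chr4:138250435-138301967, plus strand), a homodimeric kinesin that also transports a transcriptional coactivator in spermatids, showed the opposite order. Its level was 579, 573 and 559 CPM in HETStra8 mice 1, 2 and 3 and 473, 481 and 455 CPM in KOStra8 mice 1, 2 and 3. All KOStra8 values were lower, and the groups were separated by a wider gap than the range within either. The means were 570 ± 10.4 and 470 ± 13.7 CPM (SD, n = 3). The log2 fold change of Kif17 was -0.28 (SE 0.0629, 95% interval -0.41 to -0.14, edgeR adjusted p = 0.126).

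The other 3 motor genes overlapped between the genotypes. Kif3a and Kif3b, the motor chains of kinesin-II, averaged 114 and 381 CPM in HETStra8 and 129 and 379 CPM in KOStra8, with log2 fold changes of 0.18 and -0.0068. Dync2li1, the light intermediate chain of dynein-2, averaged 32.8 CPM and 31.1 CPM, a log2 fold change of -0.076 where its heavy chain Dync2h1 had 0.37.

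**Figure D2:**
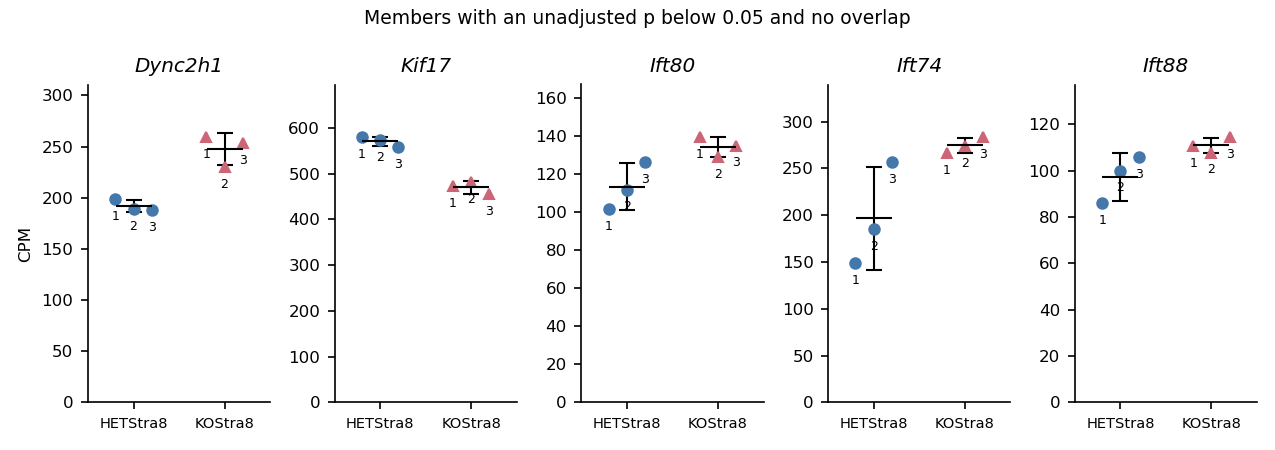
Level in CPM (y axis, from 0) of the 5 members with an unadjusted p below 0.05 and no overlap, in each HETStra8 mouse (circles) and KOStra8 mouse (triangles), numbered by mouse, with bars for the mean and SD of 3 mice. Dync2h1 and Kif17 form tight groups, whereas the HETStra8 values of Ift74 reach from 149 to 256 CPM and mouse 3 lies close to the KOStra8 mice.

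IFT-B1 is the part of the IFT-B complex that carries tubulin and other cargo. At an unadjusted p of 0.05, 2 of its 10 members were higher and 1 lower, beside 7.13% and 5.12% of all genes. In the fit corrected for GC content and length, 1 was higher and 0 lower, beside 4.33% and 3.14%. Ift74 (chr4:94614491-94693229, plus strand), which binds tubulin together with Ift81, stood at 149, 185 and 256 CPM in HETStra8 mice 1, 2 and 3 and at 267, 274 and 283 CPM in KOStra8 mice 1, 2 and 3. The KOStra8 mice lay close together above all HETStra8 mice, and HETStra8 mouse 3 was only slightly below them. The means were 197 ± 54.8 and 275 ± 8.25 CPM (SD, n = 3). Ift74 had a log2 fold change of 0.48 (SE 0.191, 95% interval 0.02 to 0.94, edgeR adjusted p = 0.393). Without HETStra8 mouse 3 it was 0.73 with an adjusted p of 0.00011, and without a filter on low counts the adjusted p was 0.00334. With the GC and length correction described further on it was 0.33 (adjusted p = 0.662). Leaving out HETStra8 mouse 3 as well, chosen after seeing the data, gave 0.51 (adjusted p = 0.0016), beside 115 genes called higher and 25 lower. The settings with a call also called more of all genes, so the call turned on these choices. Ift81 showed the same order of HETStra8 mice, 119, 153 and 186 CPM, against 194, 176 and 187 CPM in KOStra8, and the groups overlapped. Its log2 fold change was 0.29 (adjusted p = 0.442), or 0.46 without HETStra8 mouse 3 (adjusted p = 0.0130).

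Ift88 (chr14:57424062-57517936, plus strand), a core scaffold subunit needed for flagellum formation, stood at 85.9, 100 and 106 CPM in HETStra8 mice 1, 2 and 3 and at 111, 108 and 114 CPM in KOStra8 mice 1, 2 and 3. The groups did not overlap, but the highest HETStra8 and the lowest KOStra8 mouse nearly met. Its means were 97.3 ± 10.2 and 111 ± 3.27 CPM (SD, n = 3). The log2 fold change was 0.19 (edgeR adjusted p = 0.397).

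Ift22, a Rab-like small GTPase whose promoter window is printed above, had the smallest p of the IFT-B1 members. It stood at 124, 104 and 93.6 CPM in HETStra8 mice 1, 2 and 3 and at 96.0, 88.6 and 89.7 CPM in KOStra8 mice 1, 2 and 3. HETStra8 mouse 3 lay below KOStra8 mouse 1, so the genotypes overlapped. Ift22 had a log2 fold change of -0.23 (SE 0.0971, edgeR adjusted p = 0.366). Ift27, another Rab-like GTPase, which links the trains to BBSome export, had -0.21, and the core subunits Ift46 and Ift52 had -0.18 and -0.02. Ttc26, also called IFT56, averaged 42.6 ± 1.85 and 43.5 ± 1.58 CPM (SD, n = 3), which is 0.03 on the log2 scale.

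The remaining IFT-B1 members, Ttc30a1 and Ttc30b, are paralogs that encode versions of the subunit IFT70 on chromosome 2. Ttc30a1 stood at 29.7, 27.3 and 27.8 CPM in HETStra8 and at 29.1, 29.3 and 29.9 CPM in KOStra8 mice 1, 2 and 3, with overlap. Ttc30b stood at 8.62, 10.6 and 9.45 CPM and at 10.5, 11.7 and 10.7 CPM, with KOStra8 mouse 1 just below HETStra8 mouse 2. Log2 fold changes were 0.06 (edgeR adjusted p = 0.834) for Ttc30a1 and 0.19 (adjusted p = 0.602) for Ttc30b. Of the 50-base sequences in their transcripts, 31.8% in Ttc30a1 and 34.8% in Ttc30b were also present in another gene, mostly the third paralog Ttc30a2, so the split of reads among them is uncertain. Ttc30a2, which the rule did not take, averaged 150 ± 16.7 and 148 ± 5.26 CPM (SD, n = 3).

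IFT-B2 is the part of the complex that docks kinesin-II. At an unadjusted p of 0.05, 1 of its 6 members was higher and 1 lower, beside 7.13% and 5.12% of all genes. In the fit corrected for GC content and length, 0 were higher and 0 lower, beside 4.33% and 3.14%. Ift80 (chr3:68892499-69004570, minus strand) stood at 102, 112 and 126 CPM in HETStra8 mice 1, 2 and 3 and at 139, 129 and 135 CPM in KOStra8 mice 1, 2 and 3. The groups did not overlap, with HETStra8 mouse 3 next to KOStra8 mouse 2. Its means were 113 ± 12.4 and 135 ± 5.21 CPM (SD, n = 3). Ift80 had a log2 fold change of 0.25 (SE 0.0866, edgeR adjusted p = 0.291).

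Ift172, the largest IFT-B subunit, which is needed for the turnaround of trains at the tip, stood at 693, 663 and 568 CPM in HETStra8 mice 1, 2 and 3 and at 600, 544 and 559 CPM in KOStra8 mice 1, 2 and 3. HETStra8 mouse 3 lay below KOStra8 mouse 1, so the groups overlapped. Ift172 had a log2 fold change of -0.18 (edgeR adjusted p = 0.392), opposite in sign to that of Ift80. Ift57, one of the kinesin-docking subunits, stood at 61.8, 77.7 and 76.4 CPM against 79.5, 83.8 and 81.2 CPM without overlap and with a log2 difference of 0.18 (adjusted p = 0.450). Traf3ip1 (IFT54), Cluap1 (IFT38) and Ift20, which also works at the Golgi, had log2 fold changes of 0.03, -0.02 and -0.03. The Cluap1 value carries a limit, since 40.8% of its exon bases overlap other annotated genes, Gm20695 on the same strand among them, and the strand setting of the counting is not given.

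IFT-A, which works with dynein-2 in return transport and brings membrane proteins into cilia, had no member past an unadjusted p of 0.05 in either direction. Ift140, a core subunit and among the most abundant members, stood at 905, 835 and 676 CPM in HETStra8 mice 1, 2 and 3 and at 719, 681 and 708 CPM in KOStra8 mice 1, 2 and 3. HETStra8 mice 1 and 2 were above all others, and HETStra8 mouse 3 was the lowest of the 6. The log2 fold change of Ift140 was -0.20 (SE 0.0917, edgeR adjusted p = 0.410), or -0.30 without HETStra8 mouse 3 (adjusted p = 0.0132). Ift122, another core subunit, had -0.14, with 424, 384 and 301 CPM in HETStra8 and 326, 355 and 322 CPM in KOStra8 mice 1, 2 and 3, the same position of HETStra8 mouse 3. The core subunit Wdr19 had 0.04, and the peripheral subunits Ift43, Wdr35 and Ttc21b had -0.10, -0.02 and 0.09.

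None of the 7 BBSome subunits passed an unadjusted p of 0.05, with log2 fold changes between -0.12 and 0.17. Bbs7, a beta-propeller subunit with a promoter match printed above, had the smallest p, with 67.9, 79.5 and 86.2 CPM in HETStra8 and 80.3, 88.6 and 94.7 CPM in KOStra8 mice 1, 2 and 3. The genotypes overlapped, and the log2 fold change was 0.17 (SE 0.0984, edgeR adjusted p = 0.491). Bbs9, which forms the centre of the complex, had -0.12, Ttc8 (BBS8) had 0.09, and Bbs1, Bbs2, Bbs4 and Bbs5 lay between -0.02 and 0.03. Bbs1, whose product contacts the small GTPase ARL6, averaged 43.3 ± 0.745 and 42.7 ± 2.14 CPM (SD, n = 3).

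The 4 genes for assembly and recruitment of the BBSome all had log2 fold changes above 0, between 0.07 and 0.11. Over all genes 48.5% were above 0, and of genes below 45% GC 4653 of 5980 were. The median GC content of the 4 was 43.5%. None passed an unadjusted p of 0.05. With the GC and length correction described further on, 2 of the 4 were above 0, with a median of -0.016, and Arl6 was at -0.10. Bbs10, a chaperonin-like protein that helps to fold BBSome subunits, stood at 16.2, 18.0 and 16.9 CPM in HETStra8 and at 17.6, 18.2 and 19.4 CPM in KOStra8 mice 1, 2 and 3. The groups overlapped, and the log2 fold change was 0.11 (edgeR adjusted p = 0.713). Its chaperonin-like partners were the scarcest members: Bbs12 stood at 3.91, 4.78 and 4.80 CPM against 4.67, 5.11 and 4.44 CPM (log2 fold change 0.07), and Mkks (BBS6) at 2.35, 1.84 and 1.80 CPM against 1.83, 2.21 and 2.33 CPM (0.09). Mkks rested on 60 to 85 counts per mouse, and 29.3% of its exon bases overlap other annotated genes. Its 95% interval was wide, and differences from -0.48 to 0.66 on the log2 scale remain compatible with these counts. Arl6 (BBS3), the small GTPase that recruits the BBSome to membranes, averaged 25.0 ± 4.53 and 26.9 ± 2.69 CPM (SD, n = 3).

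Levels of different members were compared per length, as CPM per kilobase of annotated exon averaged over the 6 mice. Kif17 was highest at 114 CPM per kilobase, followed by Ift172 at 91.4, Ift140 at 90.5 and Ift74 at 88.7. Kif17 stood at the 97.7th percentile of all genes tested, and the per-mouse ranges of the next 3 overlapped one another. At the other end were Ttc30b at 3.75, Bbs12 at 1.90 and Mkks at 0.639 CPM per kilobase, so the highest and lowest members differed 178-fold. The median level was 17.9 CPM per kilobase in the members and 2.76 in all genes tested, whose median 36 of the 38 members exceeded.

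Levels differed between the roles. Their medians were 34.0 CPM per kilobase for the motors, 33.5 for IFT-A, 26.0 for IFT-B2, 17.1 for IFT-B1, 11.1 for the BBSome and 3.85 for assembly and recruitment. Subunits of 1 complex were not equally abundant: within IFT-A the level ranged from 7.30 for Wdr19 to 90.5 for Ift140, and within the BBSome from 3.86 for Ttc8 to 29.1 for Bbs5. Within a genotype the members varied little between mice, with a median coefficient of variation of 10.4% in HETStra8 and 5.23% in KOStra8. Exon length was the union of all annotated exons, so genes with long exons that are used only in some transcripts are placed lower. Ift80, with 12.4 kb of annotated exon, had 9.97 CPM per kilobase.

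**Figure D3:**
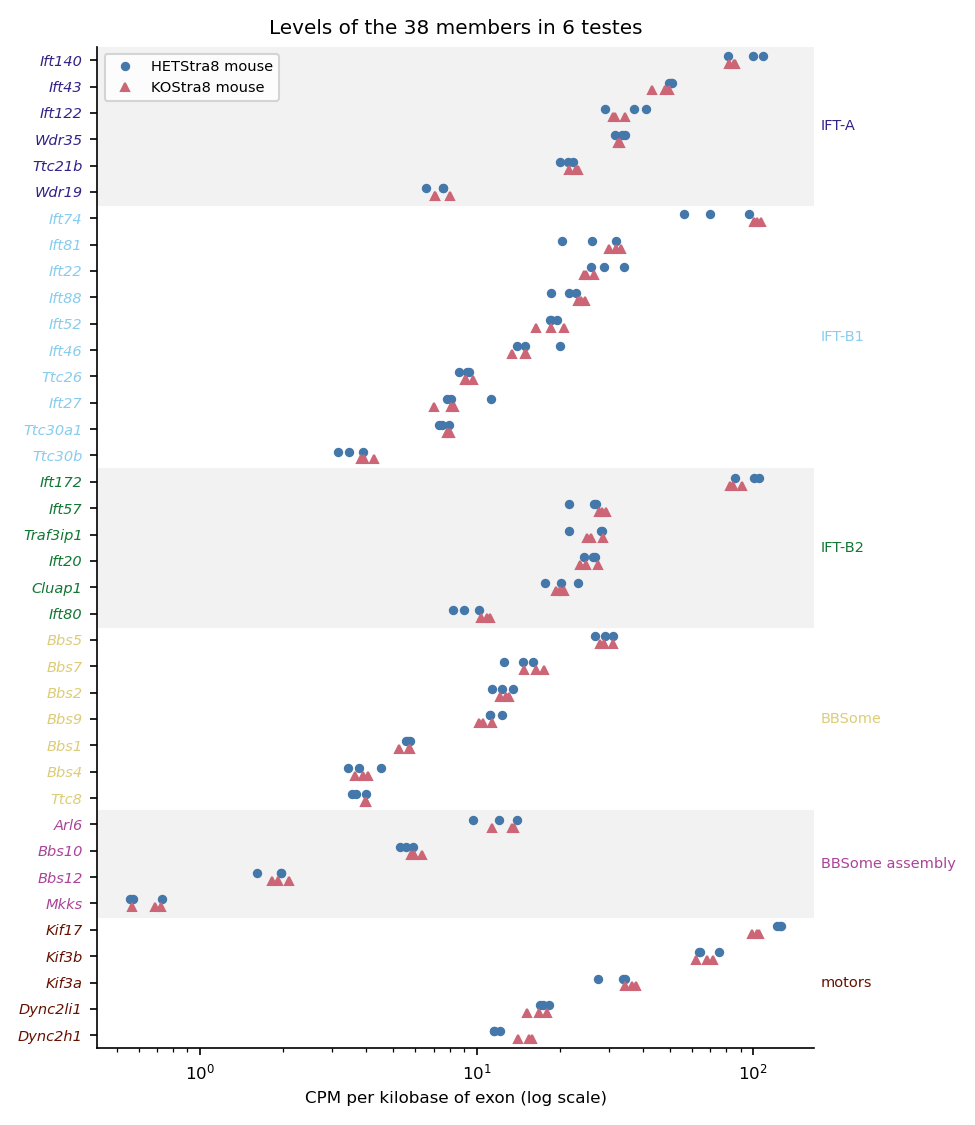
Level of the 38 members in CPM per kilobase of exon (x axis, log scale) in each HETStra8 mouse (circles) and KOStra8 mouse (triangles), with rows grouped by role and ordered by mean level. Levels run from Mkks at 0.639 to Kif17 at 114, and for most members the circles and triangles lie on top of each other.

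The members with values above and below 0 differed in base composition. Across the 38 members the log2 fold change and the GC content of the longest transcript had a Spearman correlation of -0.76, and across 21457 tested genes with a GC value it was -0.46, as a description of points that share the same 6 libraries. Of 16 members below 45% GC, 15 had a log2 fold change above 0, as did 4653 of 5980 genes in that band. Of 11 members above 50% GC, 2 did, as did 2558 of 9346 genes. Dync2h1 and Ift74 have 43.4% and 41.6% GC, and Kif17, at 60.1%, is the most GC-rich member. In each library, the deviations of all genes from their means over the 6 mice were also correlated with GC content. The Spearman values were 0.39, 0.29 and -0.05 in HETStra8 mice 1, 2 and 3. In KOStra8 mice 1, 2 and 3 they were -0.24, -0.19 and -0.37. Genotype and base composition of the libraries moved together, and their parts in these differences cannot be told apart.

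Counts were therefore also fitted with offsets that remove the trend with GC content and length from each library, after which the correlation was -0.05 in the members and -0.01 in all genes. The median log2 fold change of the members became -0.0057, and 19 of 38 were above 0, beside 51.6% of all genes. At an unadjusted p of 0.05 the corrected fit had 3 members higher (Dync2h1, Ift74 and Kif3a), beside 4.33% of all genes, and 2 lower (Bbs5 and Kif17), beside 3.14%. Dync2h1 moved from 0.37 to 0.16 (unadjusted p = 0.0344), Ift74 from 0.48 to 0.33 (unadjusted p = 0.0489) and Kif17 from -0.28 to -0.12 (unadjusted p = 0.0456). Ift80 and Ift88 moved from 0.25 and 0.19 to 0.02 each. Ift22, Ift172 and Ift140 moved to -0.13, -0.07 and -0.14. Bbs5, at 39.9% GC, moved from 0.01 to -0.21 (unadjusted p = 0.0140). No member was called, the smallest adjusted p being 0.526.

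**Figure D4:**
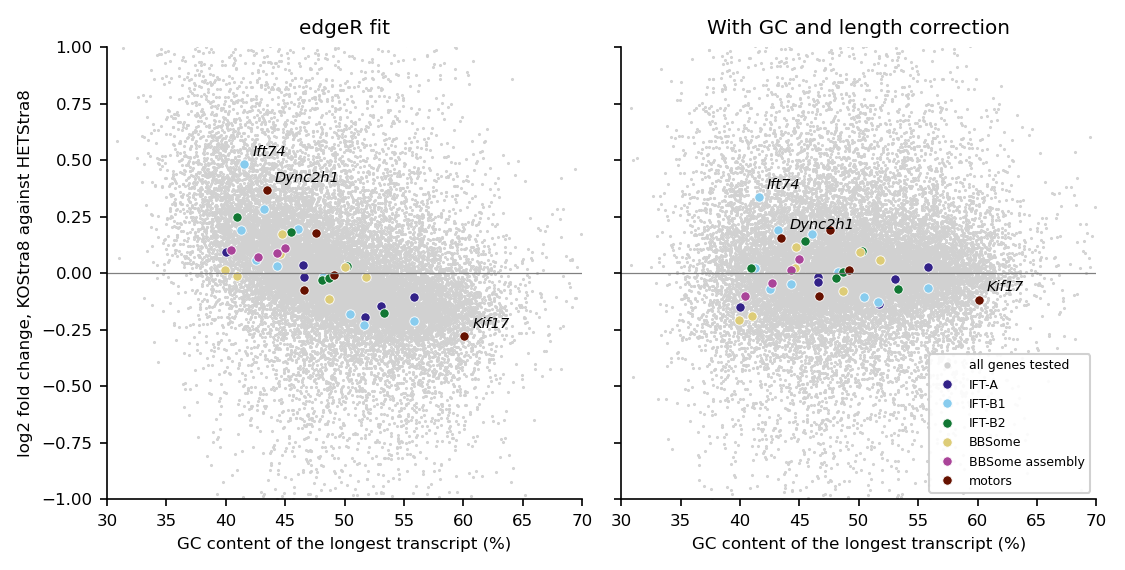
Log2 fold change (y axis, cut at -1 and 1) against GC content of the longest transcript in % (x axis) for all genes tested (grey) and the members (coloured by role), before (left) and after (right) correction for GC content and length. The members follow the falling band of all genes on the left, with Ift74 and Dync2h1 high and Kif17 low, and lie around 0 on the right, where Ift74 is still at 0.33.

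Markers of germ cell stages and other testis cells were counted beside the members. The summed level of 6 leptotene and zygotene spermatocyte markers was 180, 207 and 305 CPM in HETStra8 mice 1, 2 and 3 and 343, 335 and 349 CPM in KOStra8 mice 1, 2 and 3, an order like that of Ift74, with HETStra8 mouse 3 nearest to KOStra8. Most of this sum was Smc1b, a meiotic cohesin subunit, at 134, 166 and 251 CPM against 295, 291 and 302 CPM. It was the only marker of the 6 whose groups did not overlap, and its transcript has 39.8% GC. Of all genes, 9.33% were higher without overlap. Of the 6 markers, 4 had log2 fold changes above 0 and 2 below. After the GC and length correction 2 were above 0, with a median of -0.068, and Smc1b was at 0.49. HETStra8 mouse 3 was also the HETStra8 library nearest to KOStra8 in the correlation with GC content given above. Summed markers of pachytene and diplotene spermatocytes lay between 5546 and 6000 CPM in HETStra8 and between 5311 and 5688 CPM in KOStra8. Of these 8 markers only Mybl1 did not overlap, with 69.2 ± 8.89 CPM in HETStra8 and 94.6 ± 6.14 CPM in KOStra8 (SD, n = 3). Its log2 fold change was 0.45 (edgeR adjusted p = 0.112), and 0.13 after correction, at 37.0% GC. Summed markers of round spermatids lay between 559 and 668 CPM in HETStra8 and between 605 and 676 CPM in KOStra8. Of 10 elongating spermatid markers 9 had log2 fold changes below 0, as did 11060 of the 21465 genes tested. For 3 of them the groups did not overlap, all lower in KOStra8, beside 8.43% of all genes. After the GC and length correction 5 of the 10 were above 0, with a median of -0.0001. Markers of somatic cells mostly had values below 0. These were all 6 of Sertoli cells, all 6 of Leydig cells, all 5 of peritubular myoid cells and 6 of 7 of macrophages. After correction those above 0 were 2 of Sertoli cells, 0 of Leydig cells, 2 of peritubular myoid cells and 1 of macrophages. Over all genes that share was 51.6%. Sertoli cell markers summed to between 148 and 162 CPM in HETStra8 and between 137 and 144 CPM in KOStra8 without overlap, and Leydig cell markers to between 453 and 691 CPM and between 367 and 493 CPM with overlap. Peritubular myoid markers summed to between 105 and 146 CPM and between 106 and 122 CPM, and macrophage markers to between 67.4 and 77.1 CPM and between 60.0 and 80.5 CPM. The groups did not overlap for 2 Sertoli cell, 1 Leydig cell, 0 peritubular myoid and 3 macrophage markers. All of these were lower in KOStra8, beside 8.43% of all genes. The part of cell composition in the values of the members was not tested.

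Levels were also summed over each complex. All 38 members together gave between 5070 and 5413 CPM in HETStra8 and between 5111 and 5227 CPM in KOStra8. Summed IFT-B1 members lay between 774 and 883 CPM in HETStra8 and between 905 and 930 CPM in KOStra8 without overlap. Ift74 and Ift81, at 41.6% and 43.2% GC, are the largest terms of that sum, which is not corrected for GC content. In the corrected fit the 10 IFT-B1 members had a median log2 fold change of -0.022, and 5 were above 0, beside 51.6% of all genes. Summed IFT-A members lay between 1550 and 1946 CPM and between 1639 and 1660 CPM, summed BBSome members between 325 and 357 CPM and between 344 and 360 CPM, and both overlapped.

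Genes that work with the members but were not taken by the rule were counted in the same fit. Of 42 such partners, comprising further subunits and cofactors, motor subunits, transition zone proteins and cilium transcription factors, all 42 were tested and 0 were called at an adjusted p of 0.01. At an unadjusted p of 0.05 there were 5 higher and 4 lower, beside 7.13% and 5.12% of all genes, and the median log2 fold change was 0.0056. Without HETStra8 mouse 3 there were 10 higher and 6 lower, beside 11.0% and 8.81%. Without HETStra8 mouse 1 there were 3 and 2 (5.21% and 3.42%), without KOStra8 mouse 2 there were 3 and 4 (6.48% and 4.24%), and without KOStra8 mouse 1 there were 4 and 1 (5.50% and 3.81%). The 9 partners with an unadjusted p below 0.05 in the fit of all 6 mice did not overlap between the genotypes. Of all 42 partners, 7 were higher and 7 lower without overlap, beside 9.33% and 8.43% of all genes. After the GC and length correction 1 partner was higher (Wdr60) and 3 were lower, beside 4.33% and 3.14% of all genes. Of those lower, Tulp3 was among the 9, whereas Rab28 and Rfx3, named after their values were seen, had log2 fold changes of 0.04 and 0.02 before and -0.28 and -0.25 after correction (unadjusted p = 0.0331 and 0.00426).

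Among partners of the BBSome, Lztfl1, a regulator of BBSome traffic, had 121 ± 20.1 CPM in HETStra8 and 164 ± 5.41 CPM in KOStra8 (SD, n = 3). Its log2 fold change was 0.44 (edgeR adjusted p = 0.136), and 0.12 after correction. Bbip1, the smallest BBSome subunit, had 0.25 (adjusted p = 0.343), and 0.07 after correction. Tulp3, the adaptor between IFT-A and membrane cargo, had -0.41 (adjusted p = 0.353) at only 8.94 ± 1.03 and 6.73 ± 0.923 CPM, and remained at -0.43 after correction.

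Of the motor partners, Wdr60, an intermediate chain of dynein-2, had 145, 168 and 172 CPM in HETStra8 and 189, 194 and 185 CPM in KOStra8 mice 1, 2 and 3. Its log2 fold change was 0.23 (edgeR adjusted p = 0.286), with the sign of that of the heavy chain Dync2h1. After correction it was 0.23. Wdr34, the other intermediate chain, named after its values were seen, overlapped between the genotypes. Its log2 fold change was -0.17 (edgeR adjusted p = 0.518), and -0.0088 after correction. Of the 10 motor partners 6 had values above 0 and 4 below. Among the further subunits and cofactors, Spef2, a protein of the sperm tail that binds IFT20, had 0.33 (adjusted p = 0.252), and 0.16 after correction.

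In the transition zone, the gate at the base of cilia, Cep290 stood at 106, 135 and 232 CPM in HETStra8 and at 293, 294 and 281 CPM in KOStra8 mice 1, 2 and 3. HETStra8 mouse 3 was again nearest to the KOStra8 mice, and the log2 fold change was 0.88 (SE 0.325, edgeR adjusted p = 0.403), or 0.61 after correction. Tctn2 and Tctn3, tectonic proteins of the same zone, had -0.18 and -0.22 (adjusted p = 0.379 and 0.363), and -0.11 and -0.12 after correction. Rfx1, an RFX family factor that binds X-boxes, had 205 ± 13.9 CPM in HETStra8 and 174 ± 6.85 CPM in KOStra8 (SD, n = 3). Its log2 difference was -0.24 (edgeR adjusted p = 0.244), and -0.08 after correction.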

How the data were processed

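Testis RNA of 3 KOStra8 and 3 HETStra8 mice was analysed from the raw counts per gene that the authors deposited, 1 table per mouse, without normalization. The submitters' processing notes list Trimmomatic, STAR 2.7.1a, Picard 2.20.4, StringTie 2.0.4, featureCounts 1.6.0 and HTSeq, without saying which made the counts. The strand setting is not given in the sources used here, and libraries were directional per the study methods. Symbols, GRCm38 positions, GC content and exon lengths came from GENCODE M21. The members and gene lists were chosen with earlier results of these data known.

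Counts of all 6 mice were fitted in edgeR 4.0.16 (R 4.3.3) with filterByExpr, TMM, a robust quasi-likelihood fit on genotype alone and two-sided F tests, adjusted over 21465 genes by Benjamini-Hochberg. Library totals and a common biological coefficient of variation of 0.160 limit the precision, and p = 0.1 is the smallest that an exact permutation test can give with 3 mice per genotype. CPM are TMM-normalized. For the GC and length offsets, each library had its own loess fit (span 0.3) over genes whose log2 CPM exceeded 2. Alternatives used other scalings and filters, DESeq2 1.42.0, limma-voom (limma 3.58.1), a block for the mouse number, an adjusted p of 0.05 and each mouse left out. The steps were tested on simulated data. Full values are given for members with an unadjusted p below 0.05 and no overlap, the smallest p of each role, the 3 highest and 3 lowest per length, and Ttc30a1 and Ttc30b, and other members whose per-mouse values appear (Ift81, Ift57, Ift122) were chosen after their values were seen. Of partners, those with an unadjusted p below 0.05 and no overlap are named. Ttc30a2 is named as a paralog, and Rab28, Rfx3 and Wdr34 were added after their values were seen. Promoter sequences are RefSeq's, and protein sequences were not used here.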

Additional observations from a re-analysis of the deposited data

How the results depend on the processing

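No member passed an adjusted p of 0.01 with a fold of 2 under any of the 17 alternatives run. At an adjusted p of 0.01 alone, 2 members passed without a filter on low counts (all genes: 337 higher, 48 lower). With the Wald test of DESeq2 1 passed (121 and 11). With GC and length offsets without HETStra8 mouse 3 only Ift74 passed (115 and 25), an alternative chosen after seeing the data. With each mouse left out 0 to 2 passed, the 2 without HETStra8 mouse 3 (421 and 22). Members higher at an unadjusted p of 0.05 numbered 8 without a filter (6.09% of all genes) and 2 to 8 with a mouse left out (4.29% to 11.0%). Members lower numbered 5 without a filter (4.26% of all genes) and 1 with the block and offsets (2.81%). They numbered 6 with offsets and without HETStra8 mouse 3 (5.04%), and 1 to 6 with a mouse left out (2.27% to 8.81%). Partners higher numbered 1 with offsets (4.33% of all genes) and 1 with offsets and the block (4.43%). With a mouse left out, 3 to 10 partners were higher (4.29% to 11.0%) and 1 to 6 lower (2.27% to 8.81%). The median log2 fold change of the members was -0.0057 with offsets, -0.0066 with offsets and the block, -0.026 with offsets and without HETStra8 mouse 3, and 0.00032 to 0.052 with a mouse left out. Mouse numbers are shared only as numbers, since deviations from the group mean of same-numbered mice correlated at -0.07, -0.12 and 0.18. With the replicate block 6 members were higher and 4 lower at an unadjusted p of 0.05, beside 7.58% and 4.67% of all genes. At an adjusted p of 0.01 the block fit called 0 members, beside 31 genes higher and 1 lower, and the member median was 0.03. Over all alternatives 20 of the 38 members had no sign change. Bbs5 turned lower at an unadjusted p of 0.05 with offsets, and Ttc21b with offsets and without HETStra8 mouse 3 (adjusted p = 0.0416). Among the 14 members described in full, signs reversed for Bbs12 (-0.045 with offsets, -0.043 with offsets and the block, -0.037 with offsets and without HETStra8 mouse 3, and -0.018 to 0.13 with a mouse left out), Ttc30a1 (-0.070 with offsets, -0.067 with offsets and the block, -0.12 with offsets and without HETStra8 mouse 3) and Mkks (-0.078 with offsets and without HETStra8 mouse 3). Of 224 values of the 14 members described in full, 210 kept direction and side of the threshold, 8 reversed and 6 passed it only in the alternative. The cause of the changed calls was not tested. With 3 mice per genotype, depth and spread limit the precision, and the intervals given hold the differences that remain compatible with these counts. Genes with few counts, such as Mkks, are the least certain.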
